A study of Mus musculus with 13 samples.

Results

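Pancreatic acinar cells store their products in zymogen granules, and 9 genes for granule proteins and other products of the acinar secretory pathway were described in the mouse pancreas: Gp2, Zg16, Sycn, Cuzd1, Klk1, Rnase1, Tff2, Dnase1 and Erp27. They were taken by name, through their Entrez identifiers, and all 9 were found among the 23366 genes of the deposited table. Expression had been measured by RNA sequencing of whole pancreas in 13 female mice, with 1 library per mouse. All of them were reprogrammable i4F-B mice, which carry a ubiquitous cassette of Oct4, Sox2, Klf4 and Myc (OSKM) that doxycycline switches on and that is inserted in the Pparg gene. The 4 young mice were 13 weeks old and untreated, and the 5 old mice were 55 weeks old and untreated. The 4 old-OSKM mice received doxycycline in drinking water for 7 days and were analysed after 2 weeks without it, at 58 weeks by their labels. No group received doxycycline without the cassette, so the drug, the cassette and the 3 weeks between the labelled ages cannot be told apart. In bulk tissue, fewer acinar cells and less RNA per acinar cell cannot be told apart either.

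An acinar cell makes its secretory proteins in the endoplasmic reticulum, condenses them in the Golgi and holds them in zymogen granules at the apical side until a secretagogue triggers exocytosis. Most of the granule content is digestive enzymes, but the granule membrane also carries proteins that are not enzymes, and the content includes nucleases, a kallikrein and a trefoil peptide. Of the 9 genes, Gp2, Zg16, Sycn and Cuzd1 encode proteins of the granule membrane or bound to it, Rnase1, Klk1, Tff2 and Dnase1 encode soluble secreted proteins, and Erp27 encodes a resident of the endoplasmic reticulum that is not itself secreted.

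The granule protein genes were among the most abundant transcripts of the tissue, and this ranking has to be known to read their values. The deposited values are log2 RPKM (read density scaled to transcript length and to the mapped total of the library, on a log2 scale) after quantile normalization, which gives every mouse the same set of values and hands them out by rank. A gene near the top can therefore only take 1 of a few fixed levels. At equal places of the ranking, values differed between mice by no more than 0.0116, and 3 genes (Ctrb1, Cela2a and Amy2a5) had the same value in all mice. Going from place 23 to place 24 in the ranking lowers a gene by 0.33 on the log2 scale (1.25-fold), from place 22 to 23 by 0.27, and from place 31 to 32 by only 0.04. Thus Gp2, Zg16 and Rnase1 took 4 different values each in 13 mice, Sycn and Tff2 took 5, Klk1 6, Cuzd1 8 and Erp27 11. Equal values in different mice mean equal places, and a difference of 1 place between groups can look large or small depending on where in the ranking it falls. The table gives neither counts nor read totals, so the depth of each library is unknown.

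**Figure D1:**
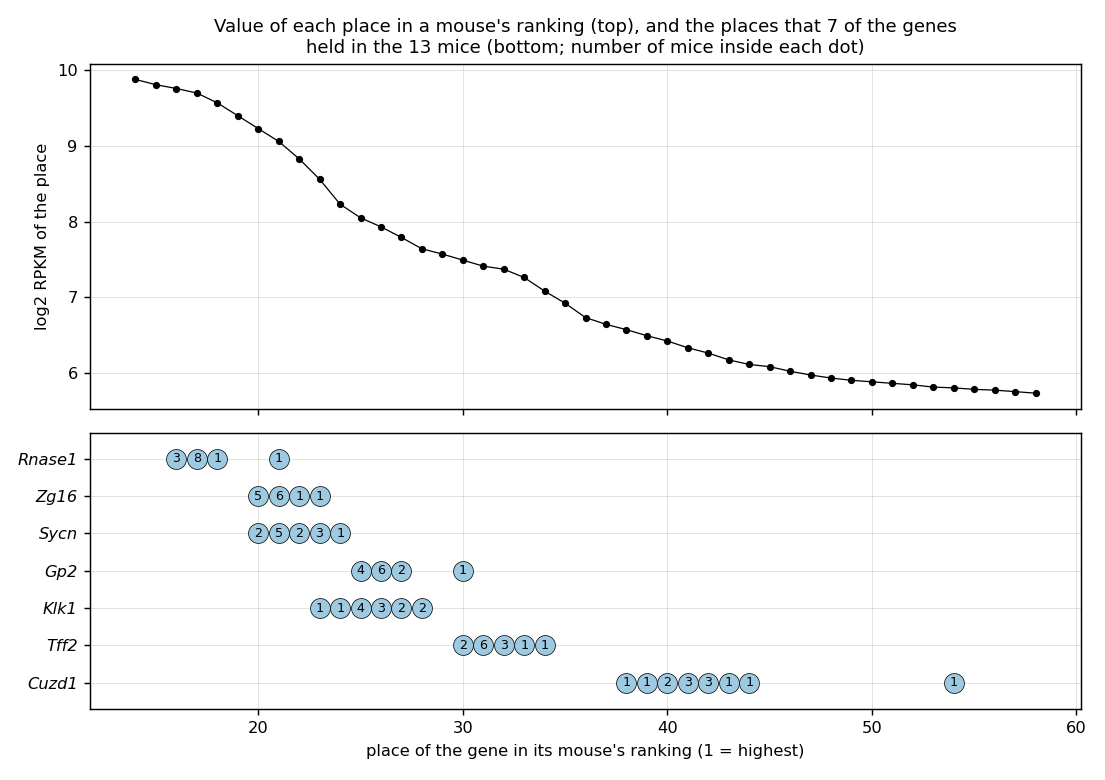
The upper panel plots the log2 RPKM belonging to each place of a mouse's ranking (x axis, 1 is the most abundant gene), and the lower panel the places that 7 of the genes held, with the number of mice inside each dot. Zg16 and Sycn lie on the steepest stretch, around places 20 to 24, while Tff2 held places 31 or 32, on a flat stretch, in most mice.

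Compared per length of transcript, Rnase1 was the most abundant of the 9 genes in all 13 mice and was followed by Zg16 and Sycn, then by Gp2 and Klk1, then by Tff2, Cuzd1 and Erp27 in that order. The neighbours Zg16 and Sycn were not separated by the spread between mice, since Zg16 stood above Sycn in 10 of 13 mice. Klk1 stood above Gp2 in 7 of 13. The other neighbours kept their order in every mouse. Among the 8 genes, 7 belonged to the 100 most abundant genes in every mouse, and Erp27 ranked between places 70 and 121. Dnase1 was a different case, with ranks between 14227 and 19644.

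The promoters of 4 abundant genes are shown because they carry matches to motifs of factors that act on acinar genes: PTF1, a complex of Ptf1a with an E protein and Rbpjl or Rbpj, binds an E-box (CANNTG) next to a TC-box (TGGGAA), and NR5A2 binds CAAGGTCA. The sequences are those of RefSeq (GRCm38.p6, the assembly also called mm10) and run from 250 bases before to 50 bases after the start of the transcript, 5′ to 3′ on the strand of the gene. Capitals mark TGGGAA and CAAGGTCA on either strand. The window of Sycn is chr7:28540635-28540934 (plus strand), that of Gp2 chr7:119459223-119459522 (minus strand), that of Rnase1 chr14:51146718-51147017 (minus strand) and that of Klk1 chr7:44225110-44225409 (plus strand).
Sycn: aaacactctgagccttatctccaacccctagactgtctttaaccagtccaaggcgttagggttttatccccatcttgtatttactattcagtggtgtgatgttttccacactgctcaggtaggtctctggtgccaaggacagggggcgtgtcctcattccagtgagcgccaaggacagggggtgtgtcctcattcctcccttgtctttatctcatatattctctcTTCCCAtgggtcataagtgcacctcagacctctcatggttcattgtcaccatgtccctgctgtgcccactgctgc
Gp2: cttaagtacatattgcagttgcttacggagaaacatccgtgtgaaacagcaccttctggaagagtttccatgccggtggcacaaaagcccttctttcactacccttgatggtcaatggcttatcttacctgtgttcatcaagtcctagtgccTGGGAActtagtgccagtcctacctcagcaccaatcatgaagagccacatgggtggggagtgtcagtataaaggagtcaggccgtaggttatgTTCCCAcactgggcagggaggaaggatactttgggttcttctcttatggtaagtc
Rnase1: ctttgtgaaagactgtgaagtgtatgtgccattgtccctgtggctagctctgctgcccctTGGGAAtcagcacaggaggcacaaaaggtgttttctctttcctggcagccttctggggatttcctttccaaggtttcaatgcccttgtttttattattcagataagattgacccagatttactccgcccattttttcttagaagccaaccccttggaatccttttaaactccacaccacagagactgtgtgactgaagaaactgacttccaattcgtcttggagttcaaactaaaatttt
Klk1: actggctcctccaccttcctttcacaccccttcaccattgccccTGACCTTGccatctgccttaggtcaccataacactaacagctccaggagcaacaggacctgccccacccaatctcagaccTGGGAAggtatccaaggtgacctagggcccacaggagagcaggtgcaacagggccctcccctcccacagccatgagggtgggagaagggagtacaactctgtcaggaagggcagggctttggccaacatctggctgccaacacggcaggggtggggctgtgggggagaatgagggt

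Of the 9 genes, 6 had a promoter in the table used, namely these 4, Cuzd1 and Dnase1, while Zg16, Tff2 and Erp27 had none. The TC-box letters were found on either strand in 4 of these 6, in 10 of 19 digestive enzyme genes and in 25.6% of 32851 promoters of the same length. These are called all promoters below and leave out 1 chromosome. A gene was counted if any of its promoters held a match, whereas each share is of single promoters. In Sycn the match starts at position -25 from the transcript start, in Klk1 at -126, in Rnase1 at -190, and in Gp2 at -98 and -5. An E-box was present in 4 of the 6, but it is so short that 72.3% of all promoters hold one. An E-box and a TC-box at most 24 bases apart were found in 0 of the 6, in 5 of the 19 enzyme genes and in 5.96% of all promoters. The NR5A2 letters were found in Klk1, at -206, in 1 of the 19 enzyme genes and in 1.56% of all promoters. These matches describe letters in a window and say nothing of binding.

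One old-OSKM mouse has to be known before the groups are compared. Old-OSKM mouse 4 had the lowest or tied lowest value of all 13 mice in each of the 8 abundant genes (7 alone, and Klk1 tied with old mouse 3), whereas for Dnase1 it lay inside its group. Its profile stood apart over the whole table. Of 8410 genes with a mean log2 RPKM above 0 it was the lowest of 13 mice in 3042 and the highest in 2015, and its median correlation with the other mice was 0.8953, compared with 0.9596 to 0.982 in the others. The summed RPKM of the 9 genes was 1810 in this mouse and 2480 to 2870 in the other 12, and that of 26 digestive enzyme and related genes was 19100 compared with 20600 to 21200. Summed levels of several marker lists of other pancreatic cells were the highest of the 13 mice in it. Such a sum follows its most abundant genes and does not show that each marker was high. The summed RPKM of 10 islet markers was 513 (81.5 to 399 in the other 12 mice), of 10 stromal and endothelial markers 89.4 (28 to 67), of 10 duct markers 58.1 (39.8 to 54) and of 8 adipocyte markers 15.4 (3.93 to 15.1). That of 10 acinar transcription factors was also highest in this mouse, at 90.9, compared with 72.6 to 87.4 in the other 12. The factors did not move as 1 in the old-OSKM group. Ptf1a had its lowest value of all mice there, 1.74, and Rbpjl its highest, 4.2. Other sums were the lowest of the 13 mice in mouse 4. That of 16 granule exocytosis genes was 65 (69 to 75.3 in the other 12 mice). That of 16 endoplasmic reticulum folding genes was 343 (359 to 485), and of 22 paralogs and relatives of the 9 genes 299 (373 to 474). The gut epithelium and salivary gland sums were lowest in it too, and the gastric sum was highest. The summed level of 10 leukocyte markers, 27.7, was second to old-OSKM mouse 1 with 37.4. The part of these markers in the low values of mouse 4 was not tested, and the comparisons of the 9 genes with old-OSKM mice, and the genes named beside them, are given with and without it, the latter being an alternative looked at closely only after the data were seen.

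**Figure D2:**
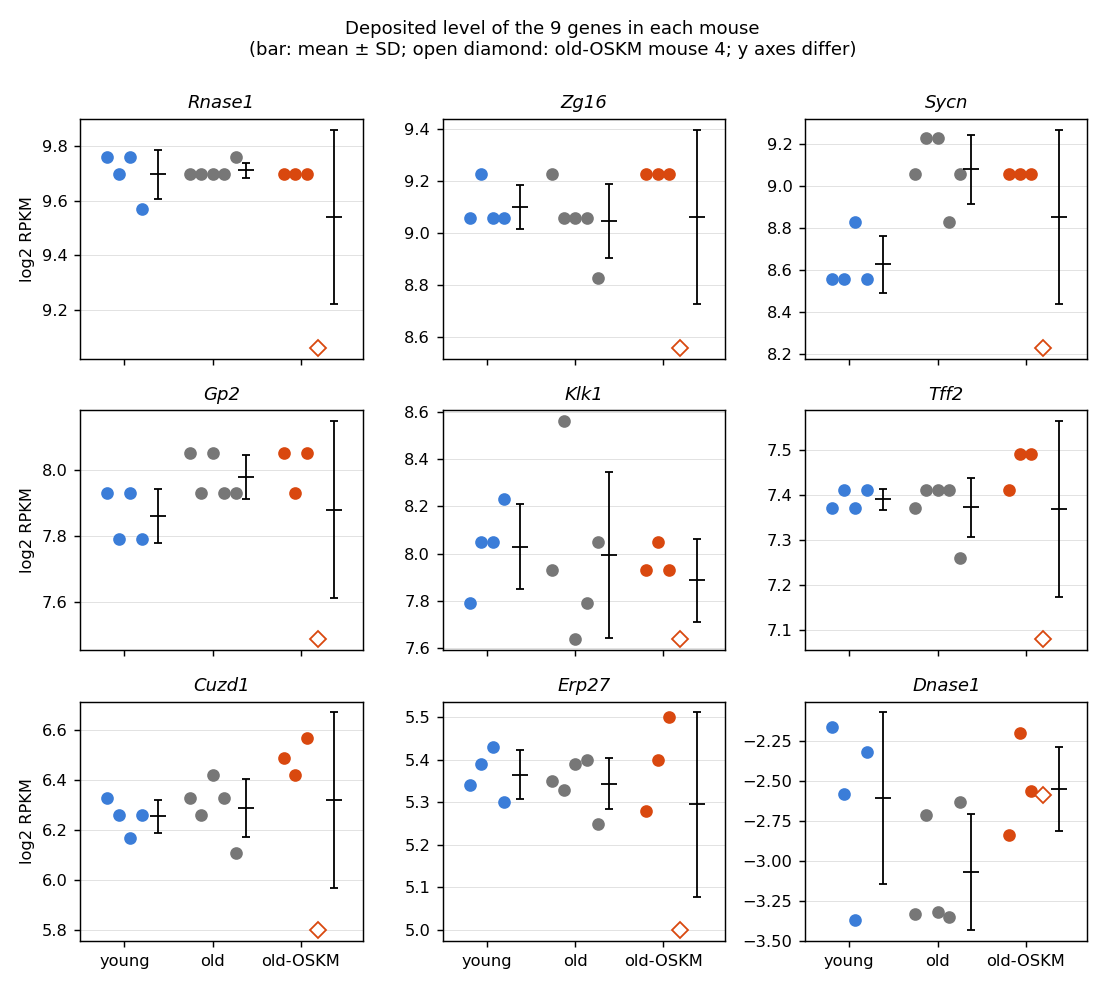
Each panel plots the log2 RPKM of 1 gene (y axis, a different range in each panel) in the 4 young, 5 old and 4 old-OSKM mice (x axis), with the mean ± SD as a bar and old-OSKM mouse 4 as an open diamond. The diamond is at the bottom of every panel except Dnase1, and shares its place with old mouse 3 in Klk1.

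Gp2 (Entrez 67133, chromosome 7 from 119442537 to 119459272) encodes the main glycoprotein of the zymogen granule membrane, held there by a lipid anchor. Its log2 RPKM was 7.93, 7.79, 7.93 and 7.79 in young mice 1 to 4, then 8.05, 7.93, 8.05, 7.93 and 7.93 in old mice 1 to 5, and 8.05, 7.93, 8.05 and 7.49 in old-OSKM mice 1 to 4. All untreated mice held places 25 to 27 of the ranking, and the young and old groups shared the value 7.93. In the same order, the group means were 7.86 ± 0.08 (SD, n = 4), 7.98 ± 0.07 (SD, n = 5) and 7.88 ± 0.27 (SD, n = 4).

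Zg16 (Entrez 69036, chromosome 7 from 127050156 to 127052675) encodes a lectin of the inner face of the granule membrane, and goblet cells of the intestine make it too. It was at 9.06, 9.23, 9.06 and 9.06 in young mice, 9.23, 9.06, 9.06, 9.06 and 8.83 in old mice, and 9.23, 9.23, 9.23 and 8.56 in old-OSKM mice. Apart from old mouse 5 and old-OSKM mouse 4, every mouse had Zg16 at place 20 or 21. The summed RPKM of 8 markers of intestinal goblet and other gut epithelium was 3.22 to 5.66 over all mice.

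Sycn (Entrez 68416, chromosome 7 from 28540885 to 28542210) encodes syncollin, a protein of the granule membrane that helps granules to fuse with one another and with the cell surface. Its values were 8.56, 8.56, 8.83 and 8.56 in young mice, 9.06, 9.23, 9.23, 8.83 and 9.06 in old mice, and 9.06, 9.06, 9.06 and 8.23 in old-OSKM mice. The old mice lay above the young ones except that old mouse 4 and young mouse 3 shared the value 8.83, the level of place 22. The young mean was 8.63 ± 0.14 (SD, n = 4), the old mean 9.08 ± 0.16 (SD, n = 5) and the old-OSKM mean 8.86 ± 0.42 (SD, n = 4).

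Cuzd1 (Entrez 16433, chromosome 7 from 131308554 to 131322292) encodes a granule membrane protein with CUB and zona pellucida domains. It was at 6.33, 6.26, 6.17 and 6.26 in young mice, 6.33, 6.26, 6.42, 6.33 and 6.11 in old mice, and 6.49, 6.42, 6.57 and 5.80 in old-OSKM mice. The first 3 old-OSKM mice were as high as or higher than all untreated mice, and the fourth was the lowest of all.

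Rnase1 (Entrez 19752, chromosome 14 from 51145002 to 51146767) encodes pancreatic ribonuclease, which digests RNA in the gut. Its values were 9.76, 9.70, 9.76 and 9.57 in young mice, 9.70 in old mice 1 to 4 and 9.76 in old mouse 5, and 9.70, 9.70, 9.70 and 9.06 in old-OSKM mice. It held place 17 in 8 of the 13 mice.

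Klk1 (Entrez 16612, chromosome 7 from 44225360 to 44229622) encodes tissue kallikrein, a serine protease that releases kinins from kininogen. It was at 7.79, 8.05, 8.05 and 8.23 in young mice, 7.93, 8.56, 7.64, 7.79 and 8.05 in old mice, and 7.93, 8.05, 7.93 and 7.64 in old-OSKM mice. The old mice alone covered the whole range of the 13 mice, with an SD of 0.35 (n = 5) compared with 0.18 in each of the other groups. Klk1 belongs to a cluster of near-identical genes and overlaps the pseudogene Gm10109, so that reads may have been divided among them in a way that cannot be checked here. The nearest abundant paralog, Klk1b5, had means of 5.70, 5.52 and 5.38 and SDs of 0.08, 0.21 and 0.15 in young, old and old-OSKM mice.

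Tff2 (Entrez 21785, chromosome 17 from 31141062 to 31144282) encodes a trefoil peptide known mostly from the mucous neck cells of the stomach. It was at 7.37, 7.41, 7.37 and 7.41 in young mice, 7.37, 7.41, 7.41, 7.41 and 7.26 in old mice, and 7.41, 7.49, 7.49 and 7.08 in old-OSKM mice. Its spread in young mice, an SD of 0.02 (n = 4), was the smallest of the 9 genes in that group, in a stretch of the ranking where places lie close together. Gastric mucosa markers were near the bottom of the table in the same libraries, with a summed RPKM over 10 genes between 1.18 and 2.06. Its paralogs were also low, with group means between -2.31 and -2.01 for Tff1 and between -2.09 and -1.68 for Tff3.

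Erp27 (Entrez 69187, chromosome 6 from 136907314 to 136922461) encodes a protein of the disulfide isomerase family that lacks the catalytic site and binds the isomerase Pdia3. It was at 5.34, 5.39, 5.43 and 5.30 in young mice, 5.35, 5.33, 5.39, 5.40 and 5.25 in old mice, and 5.28, 5.40, 5.50 and 5.0 in old-OSKM mice. Young and old mice overlapped almost fully.

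Dnase1 (Entrez 13419, chromosome 16 from 4036958 to 4040024) encodes a secreted endonuclease known from salivary glands and kidney. Its log2 RPKM was -2.16, -2.58, -3.37 and -2.32 in young mice, -3.33, -2.71, -3.32, -3.35 and -2.63 in old mice, and -2.84, -2.20, -2.56 and -2.59 in old-OSKM mice. The level did not bear out its label as an acinar product. The values fell into 4 between -3.37 and -3.32, and 9 between -2.84 and -2.16, and values as close as the lower 4 may be what the estimate gives to an undetected transcript. The 3' end of Dnase1 overlaps Trap1, which lies on the opposite strand and was at 1.48 in young and 1.57 in old mice on average, and how reads of the overlap were divided is not given in the sources used here.

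The comparison of old with young mice addresses the change with age. Sycn was the gene of the 9 that differed most among the abundant ones, its old mice being 0.46 above the young ones on the log2 scale (1.37-fold, standard error 0.17, adjusted p = 0.704 from limma over all genes). Genes were called where limma gave a fold beyond 1.5 together with an unadjusted p below 0.01, and Sycn met neither. A two-sided exact permutation test over the mice gave p = 0.024 for Sycn, where 0.0079 is the smallest p that 5 mice against 4 allow. On average Sycn stood at a steep part of the ranking, where young mice held place 23 (22 in mouse 3) and old mice places 20 to 22. Without old-OSKM mouse 4, which enters this fit only through the common estimate of the spread, the standard error was 0.09 instead (adjusted p = 0.125 from limma), and the difference was still under 1.5-fold. In that fit 2 of the 9 genes, Sycn and Gp2, had an unadjusted p under 0.05, compared with 7.7% of all genes. The mouse was left out for its low values in these genes, so their smaller spread is no independent evidence. The lower run of sample identifiers holds young mice 1 and 2, old mice 1 to 4 and all old-OSKM mice. In these mice alone, the difference of Sycn was 0.53 (standard error 0.24, adjusted p = 0.998 from limma).

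None of the 9 genes was called between old and young mice, and 0.886% of all genes were. After adjustment over all genes, limma left 0 of the 9 under 0.05, compared with 0.0813% of all genes, and at an unadjusted p under 0.05 it left 1, Sycn, compared with 5.52%. Old and young values did not overlap in 0 of the 9, compared with 2.71% of all genes. In number, 4 genes were higher and 5 lower in old mice, and the median difference was -0.02, compared with 0.00125 over all genes. Gp2 differed by 0.12 (standard error 0.10, interval of 2 standard errors -0.09 to 0.33), and 6 others by -0.06 to 0.04, with standard errors of 0.08 to 0.17. For Rnase1 the interval of 2 standard errors ran from -0.22 to 0.25, for Tff2 from -0.17 to 0.14 and for Zg16 from -0.32 to 0.21. A 1.5-fold change of the deposited value was outside the interval of each. These values are handed out by rank, so a change of RNA shared by the most abundant genes would not appear in the intervals. Dnase1 was lower in old mice by -0.46 (standard error 0.25, adjusted p = 1 from limma, two-sided exact permutation p = 0.17). Young mouse 3 was as low in Dnase1 as the lowest old mice. Without that mouse, the difference of Dnase1 was -0.72 and was called (two-sided exact permutation p = 0.036), in a fit that called 280 of 23366 genes. In the lower run of sample identifiers alone it was -0.81 and was called too, with 215 genes called. That run holds only young mice 1 and 2 beside old mice 1 to 4. It thus also lacks young mouse 3 and is not a second support. Old mice 1, 3 and 4 lay among the lowest values, which may stand for an undetected transcript.

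The comparison of old-OSKM with old mice addresses what a cycle of OSKM left after recovery. None of the 9 genes was called, and 0.753% of all genes were. Limma left 0 of the 9 with an adjusted p under 0.05, compared with 0.00428% of all genes, and 0 with an unadjusted p under 0.05, compared with 8.07%. The values of the groups did not overlap in 0 of the 9, compared with 1.73% of all genes. The median difference was -0.05, compared with -0.04 over all genes, with 3 genes higher and 6 lower. Sycn differed by -0.23 (standard error 0.17, adjusted p = 0.608 from limma, two-sided exact permutation p = 0.32), and the difference was -0.02 without mouse 4 (standard error 0.10). Rnase1 went from -0.17 (standard error 0.12) to -0.01 (standard error 0.05) in the same way. Dnase1 was higher by 0.52 (standard error 0.25, adjusted p = 0.555 from limma, two-sided exact permutation p = 0.079), and by 0.53 without mouse 4. As both comparisons use the same old mice, the opposite signs of Dnase1 in them are not independent of each other.

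Without old-OSKM mouse 4, several signs between old-OSKM and old mice turned, and 6 of the 9 genes were higher in old-OSKM mice, with a median difference of 0.05, compared with -0.02 over all genes. Cuzd1 was then higher by 0.20 (standard error 0.07, adjusted p = 0.651 from limma, two-sided exact permutation p = 0.071), compared with 0.03 in all mice. Zg16 was higher by 0.18 (standard error 0.08, adjusted p = 0.775 from limma, two-sided exact permutation p = 0.12), compared with 0.01 in all mice. Tff2 was higher by 0.09 (standard error 0.04, adjusted p = 0.796 from limma), and Gp2 and Erp27 differed by 0.03 and 0.05. At an unadjusted p under 0.05 limma then left 2 of the 9, Cuzd1 and Zg16, compared with 6.23% of all genes. The groups did not overlap in 0 of the 9, compared with 3.88%, and still none was called. As mouse 4 was singled out for low values in these genes, leaving it out had to raise the abundant ones, and these p-values and counts only describe that.

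Between old-OSKM and young mice, 0 of the 9 genes were called, compared with 0.625% of all genes. Limma left 0 with an adjusted p under 0.05 and 0 with an unadjusted one, compared with 0.0428% and 5.07% of all genes, and the groups did not overlap in 0 of the 9, compared with 1.9%. The median difference was -0.02, compared with -0.04 over all genes. Sycn differed by 0.23 (standard error 0.18, interval of 2 standard errors -0.12 to 0.58). Without mouse 4 it was 0.44 above young mice (standard error 0.10, adjusted p = 0.392 from limma, two-sided exact permutation p = 0.057), close to the 0.46 of untreated old mice. Cuzd1 differed by 0.24 without that mouse (standard error 0.07, adjusted p = 0.6 from limma, two-sided exact permutation p = 0.029, the smallest that 3 mice against 4 allow) and Gp2 by 0.15 (standard error 0.06, adjusted p = 0.769 from limma), and 8 of the 9 genes were higher than in young mice. These 3 genes had an unadjusted p under 0.05 in limma without mouse 4, compared with 5.81% of all genes. The values of Sycn and Cuzd1 then did not overlap with those of young mice, which is 2 of the 9, compared with 4.6% of all genes. Mouse 4 was singled out for its low values in these same genes, so leaving it out had to raise their old-OSKM means. The p-values and counts without it are therefore a description and no independent evidence.

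**Figure D3:**
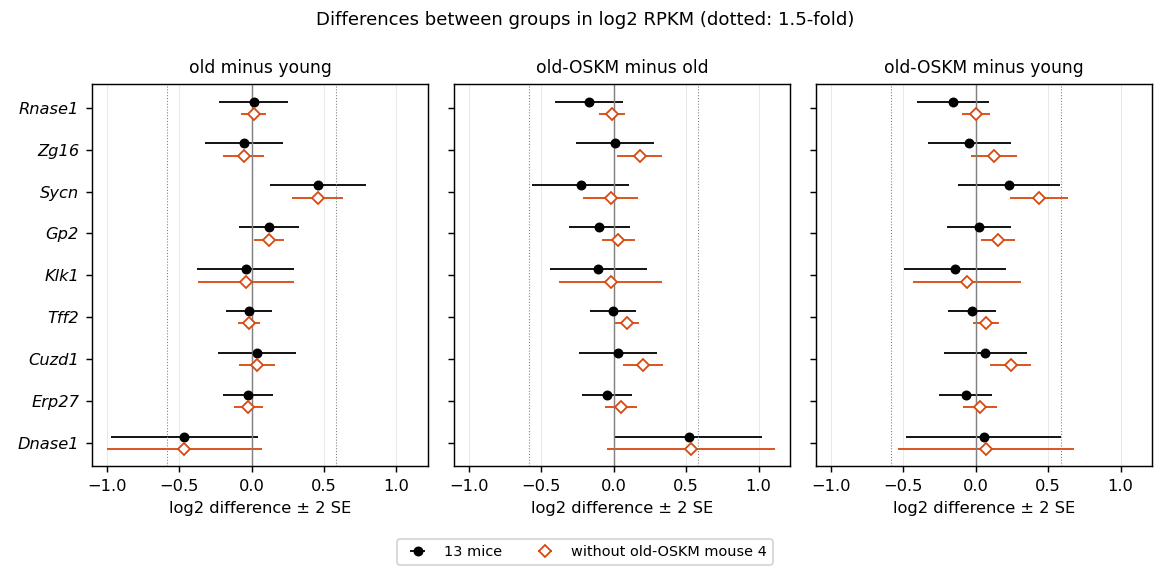
Log2 differences of the 9 genes (x axis, with bars of 2 standard errors from limma) in the 3 comparisons, for all 13 mice (black) and without old-OSKM mouse 4 (open diamonds). Dotted lines mark a 1.5-fold change. Leaving the mouse out moves most genes to the right in both comparisons with old-OSKM mice and shortens the bars of the abundant genes, Klk1 excepted.

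The order of Zg16 and Sycn inside a mouse, noticed after the values were seen and therefore given without a test, does not depend on the scaling between mice. Zg16 stood above Sycn in 4 of 4 young mice, by 0.50, 0.67, 0.23 and 0.50 on the log2 scale. In the old mice it stood above Sycn in 2 of 5, with differences of 0.17, -0.17, -0.17, 0.23 and -0.23. In the old-OSKM mice it was above in 4 of 4, by 0.17, 0.17, 0.17 and 0.33, and mouse 4 kept the order of its group although both genes were low in it. Differences of 0.17, 0.23 or 0.33 are a single place in the ranking, and those of 0.50 and 0.67 are 2 and 3 places.

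**Figure D4:**
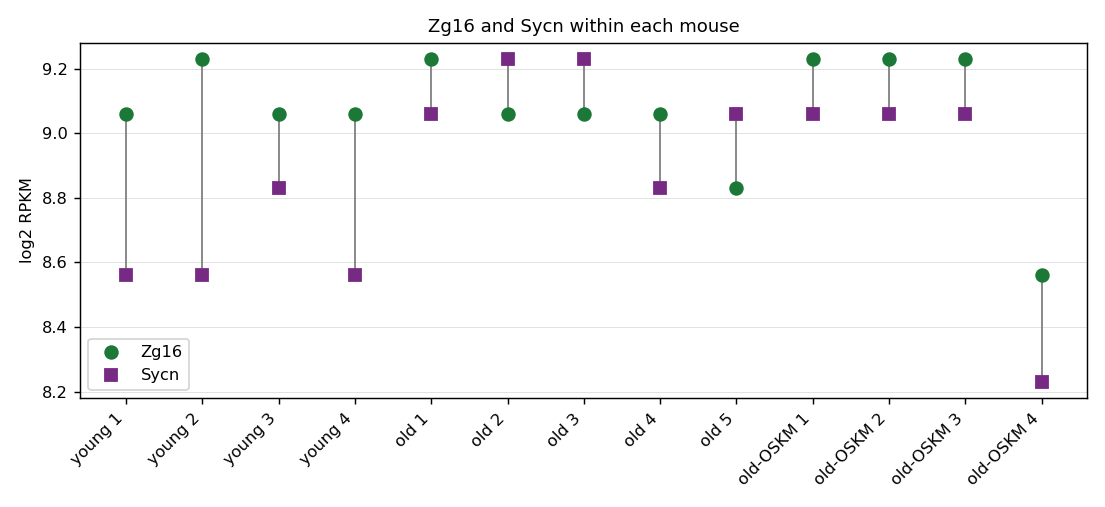
The log2 RPKM (y axis) of Zg16 (circles) and Sycn (squares) in each mouse (x axis), joined by a line. Sycn is the upper of the pair in old mice 2, 3 and 5 and the lower one in the other 10 mice.

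Across the 13 mice the 8 abundant genes varied together, but this rested largely on old-OSKM mouse 4. Over their 28 pairs the median Pearson's r was 0.72, ranging from 0.07 to 0.92, and without mouse 4 the median was 0.10, ranging from -0.45 to 0.76. The number of pairs with r above 0.5 went from 20 to 6. Of all 36 pairs tested, 9 had a Benjamini-Hochberg adjusted permutation p of r under 0.05 and 0 an adjusted p of Spearman's rho under 0.05. Cuzd1 and Tff2 gave the pair with the smallest p (r = 0.90, permutation p = 0.0001, adjusted p = 0.0036, and rho = 0.73, permutation p = 0.005, adjusted p = 0.06, over 13 mice). Their r was 0.68 without the 2 mice farthest from the median of Cuzd1 and 0.76 without mouse 4 alone. Gp2 and Sycn (r = 0.84, permutation p = 0.00046, adjusted p = 0.0052, rho = 0.75, permutation p = 0.0039, adjusted p = 0.06) gave 0.65 without the 2 farthest mice. Cuzd1 and Klk1 did not vary together in these mice (r = 0.07, permutation p = 0.82, rho = -0.26, permutation p = 0.39), and gave -0.44 without the 2 farthest. The mice come from 3 groups, and these correlations include any difference between groups.

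**Figure D5:**
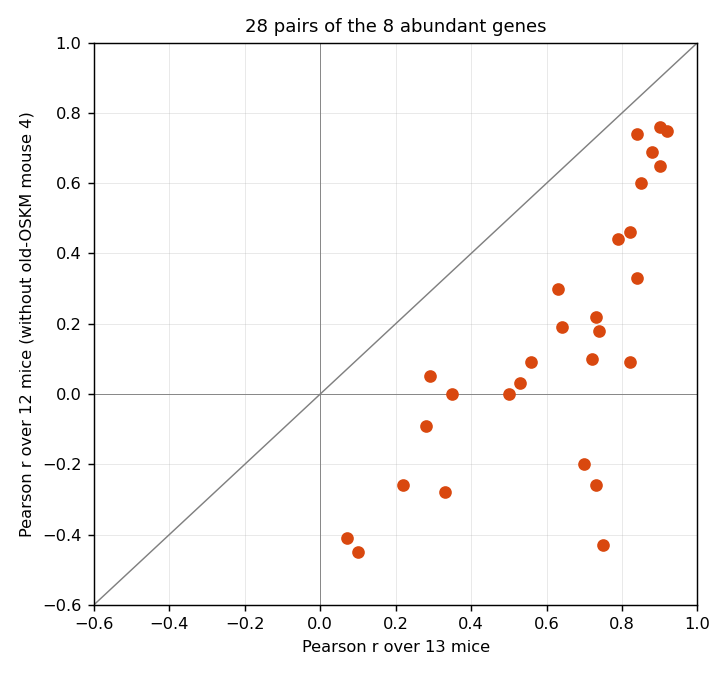
Pearson's r of each of the 28 pairs of abundant genes over all 13 mice (x axis) and over 12 mice without old-OSKM mouse 4 (y axis), with the line of equal values. All points lie under the line, and the median falls from 0.72 to 0.10.

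The genes whose profile over the 13 mice was most like that of the 8 abundant genes (Pearson's r with the mean of their z-scores, a description over 13 mice that share the low mouse) were Cox7b, a subunit of cytochrome c oxidase, with 0.99, the fucosidase gene Fuca2 with 0.97, Emc7, of a complex that inserts membrane proteins in the endoplasmic reticulum, with 0.97, Rps27l with 0.96, and Atp5j, a subunit of ATP synthase, with 0.96. The gene least like them was Zfp866 with -0.96. Without mouse 4 these values became 0.93, 0.77, 0.74, 0.66, 0.74 and -0.78, and the leading genes over the 12 mice were Cox7b with 0.93 and Prdx4, a peroxiredoxin of the endoplasmic reticulum, with 0.87.

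The digestive enzymes are packed into the same granules. Of 26 genes for enzymes, colipase and the trypsin inhibitor, 0 were called in any of the 3 comparisons by limma with all mice. At an unadjusted p under 0.05 there were 3 between old and young mice, compared with 5.52% of all genes. Between old-OSKM and old mice there was 1, compared with 8.07%, and between old-OSKM and young mice 3, compared with 5.07%. Without old-OSKM mouse 4 these counts were 8, 0 and 7, compared with 7.7%, 6.23% and 5.81% of all genes. That mouse had the lowest enzyme sum and was left out after the data were seen. The counts without it are therefore a description and no independent evidence. Pnlip, the pancreatic lipase, was at 10.62 in all young mice and at 10.36 ± 0.09 (SD, n = 5) in the old ones, which is -0.26 between the means (adjusted p = 0.0923 from limma), and the groups did not overlap. Old and young values did not overlap in 3 of the 26 genes, Pnlip included, compared with 2.71% of all genes. Prss2, a trypsinogen, went from 10.41 ± 0.02 (SD, n = 4) to 10.62 in all old mice, a difference of 0.21 (adjusted p = 0.322 from limma). Both lie within the first 8 places of the ranking, where such differences are shifts of at most a few places. Ctrb1, Cela2a and Amy2a5 held places 1 to 3 in every mouse and could show no difference. Places 4 to 8 span only 10.62 to 10.24, so a gene within them could not reach 1.5-fold. Quantile normalization would also remove a change shared by the most abundant genes. The 0 calls thus do not show that enzyme RNA was unchanged. Between old-OSKM and old mice the smallest p belonged to Prss1, another trypsinogen, with -0.21 (adjusted p = 0.547 from limma), and -0.15 without old-OSKM mouse 4 (adjusted p = 0.801 from limma). Without old-OSKM mouse 4, 1 enzyme gene was called between old-OSKM and young mice, the trypsinogen-like 1810009J06Rik, with a log2 difference of 1.67 (adjusted p = 0.578 from limma). In all mice the difference was 1.10 (adjusted p = 0.706 from limma), and the fit without mouse 4 called 179 of 23366 genes. The gene ranked between places 2548 and 13177, with an SD of 1.29 (n = 4) in old-OSKM mice. Leaving the mouse out, chosen after the data were seen, raised the difference, so the call is only a description.

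In the machinery around the granule, 0 of 16 genes of granule exocytosis, 0 of 10 acinar transcription factors and 0 of 16 genes of protein folding in the endoplasmic reticulum were called in any comparison by limma, and at an unadjusted p under 0.05 there was 1, Chrm3, the muscarinic receptor that triggers secretion. Chrm3 was higher in old than in young mice by 0.20 (standard error 0.08, adjusted p = 0.785 from limma). In that comparison 5.52% of all genes had an unadjusted p under 0.05. Rab27a, a small GTPase of granule docking, differed by 0.12 between old and young mice and by -0.13 between old-OSKM and old mice. Ptf1a, the factor that directs acinar gene expression, differed by 0.07 and -0.33 with a standard error of 0.21, and Pdia3, the partner of Erp27, by -0.18 and 0.26 with a standard error of 0.15. With old-OSKM mouse 4 left out, the differences from old mice were -0.08 for Rab27a, -0.07 for Ptf1a and 0.27 for Pdia3.

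Among 22 paralogs and relatives of the 9 genes, 0 were called in any comparison. At an unadjusted p under 0.05 limma gave 0 between old and young mice, 2 lower in old-OSKM than in old mice and 2 lower in old-OSKM than in young mice. Of all genes, 5.52%, 8.07% and 5.07% had such a p in these comparisons, in the same order. The means of the kallikrein gene Klk1b24 were 1.66 in young, 1.86 in old and 1.18 in old-OSKM mice, with SDs of 0.30, 0.42 and 0.46. Old-OSKM and old mice thus differed by -0.69 in Klk1b24 (adjusted p = 0.547 from limma), and by -0.11 in Klk1. Klk1b5 differed by -0.32 between old-OSKM and young mice (adjusted p = 0.706 from limma). In the fit without old-OSKM mouse 4, these differences were -0.49 for Klk1b24, -0.02 for Klk1 and -0.29 for Klk1b5. Dmbt1, a scavenger receptor domain protein that shares its CUB and zona pellucida domains with Cuzd1, was as abundant as Gp2 and Klk1, with means of 8.19, 8.20 and 8.29 and SDs of 0.09, 0.08 and 0.36 in young, old and old-OSKM mice.

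Some markers of other cells were called between the groups, and their part in the values of the 9 genes was not tested. Their adjusted p from limma was 0.469 to 0.706 with all mice. Of all genes, 0.886% were called between old and young, 0.753% between old-OSKM and old and 0.625% between old-OSKM and young mice. Of 10 stromal and endothelial markers, the collagen genes Col1a1 and Col3a1 were called lower in old than in young mice (log2 differences of -0.93 and -1.04), and Col1a1 and Col1a2 were called higher in old-OSKM than in old mice (0.88 and 0.89). Jchain, a plasma cell gene, was called higher in old than in young mice (2.35), and Jchain and Ms4a1 in old-OSKM than in young mice. The fat droplet gene Plin1 was called higher in old-OSKM than in old mice (1.53). The gastric genes Gkn3 and Pgc were called higher in 1 comparison each with old-OSKM mice, at group means below -1.8 throughout. Without old-OSKM mouse 4, Col1a1, Col1a2 and Plin1 were no longer called between old-OSKM and old mice (0.74, 0.64 and 1.44), nor Pgc between old-OSKM and young mice (1.13), whereas Gkn3, Jchain and Ms4a1 still were. None of 10 duct, 10 islet, 8 gut epithelium or 8 salivary gland markers was called with all mice by limma, and at an unadjusted p under 0.05 there were 1 islet marker and 1 gut epithelium marker, both higher in old than in young mice. The salivary sum, 18.3 to 31.4, contains Amy1, which shares sequence with pancreatic amylase genes. Without old-OSKM mouse 4 the islet genes Ins1, Pcsk2 and Sst were called lower in old-OSKM than in old mice. That fit called 181 of all 23366 genes. Mouse 4 had the highest islet, stromal and adipocyte sums of all mice, so leaving it out lowers those of its group. The calls gained or lost without it are therefore a description and no independent evidence.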

How the data were processed

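Total RNA of whole pancreas from 13 mice (4 young, 5 old, 4 old-OSKM) had been depleted of rRNA and sequenced by the study. The authors aligned reads with STAR 2.3.0e to mm10, discarded those mapping to 5 or more places, estimated RPKM per isoform with Casper, summed them per Entrez gene, and deposited log2 values after quantile normalization. The study's correction by total reads was not applied here, and the table holds no read totals, so no depth or counting error can be given. Replicates are single mice, numbered in accession order.

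Values were used as deposited, with no pseudocount or filter. The 3 groups were fitted together with limma 3.58.1 (R 4.3.3, lmFit, contrasts.fit, eBayes) over 23366 genes, two-sided. Calling required a fold beyond 1.5 with an unadjusted p below 0.01, the study's definition, and genes below 0.05 after Benjamini-Hochberg adjustment over the whole table were also counted. Single genes also had exact permutation tests over mice (scipy 1.17.1), and correlations had permutation tests with 100000 resamples. The fit was tested on simulated data. The 9 genes and all lists were chosen with earlier results of these data known. Named genes are the 9, those called in each list or otherwise up to 2 with the smallest raw p, and the genes most like the 9. Gene positions and promoters are from RefSeq (GRCm38.p6). Alternatives were pseudocounts of 1 and 0.1, a filter on low values, centring on all genes or on the enzymes, the 2 groups alone, eBayes with trend and robust settings, a covariate for the 2 runs of sample identifiers, the lower run alone, and each mouse left out. Reads and the other assays of the study were not used here.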

Additional observations from a re-analysis of the deposited data

Results flagged for a closer look

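Of 27 groups of 4 or 5 mice (9 genes in 3 groups), 7 held a mouse that lay far from the others of its group by Dixon's criterion, which chance meets in about 1 of 20 groups. Because values near the top of the table are shared by several mice, the gap to the nearest mouse equalled the whole range in 6 of the 7, and then 1 place in the ranking is enough. Old-OSKM mouse 4 was apart in 3 genes, with log2 RPKM of 8.56 for Zg16 (9.23 in the other 3 mice), 8.23 for Sycn (9.06 in the other 3) and 9.06 for Rnase1 (9.70 in the other 3). These are differences of 3 places for Zg16 and Sycn and 4 for Rnase1. Young mouse 2 was apart in Zg16, at 9.23 compared with 9.06, and young mouse 3 in Sycn, at 8.83 compared with 8.56, each by 1 place. Old mouse 5 was apart in Rnase1, at 9.76 compared with 9.70, and in Tff2, at 7.26 compared with 7.37 to 7.41, where the gap was 0.718 of the range.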

How the results depend on the processing

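No paired analysis was possible because the labels give no replicate numbers shared between groups. Under the alternatives, 567 of 618 differences of the 9 genes kept direction and side of the call, 49 turned sign, some by less than 0.01, and 2 passed the call, both Dnase1 between old and young mice. Many of the 618 could not turn sign. The 2 groups alone, the trend and robust settings, the low-value filter and the permutation test leave the difference itself unchanged. So does leaving out a mouse of the third group. With 4 mice against 4 the permutation p cannot fall below 0.029, so that test could add no call there. The number of genes of the 9 called between old and young mice was 1 in the lower run of sample identifiers alone, which lacks young mouse 3. It was 0 to 1 with each mouse left out (1 without young mouse 3). The number of enzymes called between old-OSKM and young mice was 0 to 1 with each mouse left out. Differences that turned sign were not called in any fit, and the cause was not tested. Between old and young mice, centring on the enzymes gave -0.0109 for Cuzd1 and -0.034 for Rnase1, the identifier covariate -0.0076 for Cuzd1 and 0.0083 for Klk1, and the lower run 0.0567 for Klk1, -0.032 for Rnase1, 0.0107 for Tff2 and 0.00164 for Erp27. Between old-OSKM and old mice, centring gave 0.0889 for Tff2 and 0.0462 for Erp27, the covariate -0.0221 for Zg16, and the lower run -0.0431 for Zg16 and -0.0158 for Cuzd1. Between old-OSKM and young mice, the covariate gave -0.0071 for Cuzd1, centring 0.024 for Tff2 and 0.0038 for Zg16, and the lower run -0.18 for Dnase1. With each mouse left out, the differences between old and young mice ranged from -0.179 to 0.0509 for Klk1, -0.0299 to 0.0349 for Rnase1, -0.0273 to 0.0107 for Tff2 and -0.0432 to 0.000793 for Erp27. Those between old-OSKM and old mice ranged from -0.156 to 0.0326 for Gp2, -0.0447 to 0.179 for Zg16, -0.0519 to 0.203 for Cuzd1, -0.195 to 0.0353 for Klk1, -0.046 to 0.0906 for Tff2 and -0.117 to 0.0515 for Erp27. Those between old-OSKM and young mice ranged from -0.0366 to 0.152 for Gp2, -0.099 to 0.125 for Zg16, -0.0154 to 0.24 for Cuzd1, -0.0635 to 0.0731 for Tff2, -0.199 to 0.205 for Dnase1, -0.211 to 0.000611 for Rnase1 and -0.139 to 0.0292 for Erp27. Over all genes, the 207 called between old and young, 176 between old-OSKM and old and 146 between old-OSKM and young mice became 16, 2 and 8 with a pseudocount of 1, 116, 77 and 76 with 0.1, and 44, 35 and 19 among the 8410 genes above a mean of 0. Centring on the enzymes moved the split of higher and lower genes from 105 and 102 to 83 and 124 between old and young mice, from 136 and 40 to 217 and 19 between old-OSKM and old mice, and from 106 and 40 to 129 and 27 between old-OSKM and young mice. The genes called between old-OSKM and old mice were 94, 338 and 284 without old-OSKM mouse 1, 2 and 3, and those between old-OSKM and young mice were 253 without mouse 2. Without old-OSKM mouse 4 the split between old-OSKM and old mice was 88 and 93.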
